A study of Drosophila melanogaster with 2 samples.

Results

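Weak pooled peaks inside coding exons were 5514 of the 29400 peaks in the list that pooled both replicates of a chromatin immunoprecipitation and sequencing (ChIP-seq) experiment on emc. They were chosen by their measured signal and position. Each had a pooled signal below 40, overlapped none of the 1865 IDR peaks (those the authors kept by the irreproducible discovery rate between replicates), and had its summit in the coding sequence of an annotated transcript and more than 500 bp from every annotated transcription start site (TSS). Signal is the deposited value of each peak on the caller's own scale, so its size has no unit and was used to rank and bin peaks. Weak peaks of all positions, that is, pooled peaks with a signal below 40 and no IDR overlap, numbered 24830, and those in coding exons were 22.2% of them (95% exact binomial interval 21.7 to 22.7). Where a share below carries an interval it is of this kind and covers counting error only, and peaks are not replicates of a condition.

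The immunoprecipitated protein was extra macrochaetae (emc) with GFP fused to its C terminus, in transgenic Drosophila melanogaster. Whole embryos aged 0 to 24 h, males and females together, were used, so every embryonic cell type contributed. Sonicated chromatin of 200 to 800 bp was pulled down through the GFP moiety with an anti-GFP antibody. The series holds 1 group of 2 biological replicates, numbered 1 and 3, both called against the same control alignment, which was not analysed here. Nothing in the labels says whether the replicates came from separate collections, and what drives the fusion gene is not given in the sources used here. Each replicate list held 30000 peaks. Read depth is not given in the files, so no depth stands behind any value below.

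As a helix-loop-helix protein emc can dimerize, but it has no basic region to contact DNA, and it is known for sequestering bHLH activators such as Daughterless (da) away from DNA. The bHLH dimers it opposes bind the E-box, a hexamer of the form CANNTG, which was therefore searched in the peaks. Coding exons in the fly are richer in G and C than introns and intergenic DNA, above all at the third codon position, and long exons often hold repeats of the CAG trinucleotide that encode glutamine. With the control library not analysed here, bound sites and background cannot be told apart among weak peaks.

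The windows of 201 bp centred on 9 summits show what the sequence of these peaks looks like. They are given on the coding strand from the RefSeq Release 6 assembly. The first 3 are the windows of the members with the best rank in the replicate where they ranked worse, leaving out windows that touched an untranslated region of any annotated transcript or lay on a chromosome arm from which no sequence is printed. The gene raskol encodes a Ras GTPase-activating protein, hry (hairy) encodes a pair-rule bHLH repressor, and mld encodes a zinc finger protein needed for ecdysone synthesis. In raskol 113 of the 201 bases were coding and the rest intronic, and the hry and mld windows were coding throughout. Capitals mark each E-box, of which the hry window held 3, the mld window 2 and the raskol window none.
raskol, chrX:17720556-17720756, plus strand: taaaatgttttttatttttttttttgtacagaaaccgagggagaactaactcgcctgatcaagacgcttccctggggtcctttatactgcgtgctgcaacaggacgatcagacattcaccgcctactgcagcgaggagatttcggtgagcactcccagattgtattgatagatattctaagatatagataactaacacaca
hry, chr3L:8677700-8677900, plus strand: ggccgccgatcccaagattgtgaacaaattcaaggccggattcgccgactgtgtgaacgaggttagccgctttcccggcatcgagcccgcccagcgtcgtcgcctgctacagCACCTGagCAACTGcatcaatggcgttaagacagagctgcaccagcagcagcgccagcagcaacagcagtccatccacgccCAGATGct
mld, chr3R:24620574-24620774, plus strand: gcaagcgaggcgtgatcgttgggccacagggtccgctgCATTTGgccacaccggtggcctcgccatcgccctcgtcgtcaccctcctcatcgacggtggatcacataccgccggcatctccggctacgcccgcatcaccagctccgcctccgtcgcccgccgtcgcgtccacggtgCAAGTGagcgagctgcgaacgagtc

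The next 4 windows show the extremes of base composition among the members, again with each E-box in capitals. The Iroquois homeobox gene mirr and the nuclear receptor gene Hr4 held the members richest in G and C, at 77.6% and 74.6%. Zyx, which encodes the LIM protein zyxin, and Taf3, which encodes a TFIID subunit, held the members poorest in them whose windows touched no untranslated region, at 31.3% and 31.8%. Both of these lie on chromosome 4. Neither rich window held an E-box, and the Zyx window held 2.
mirr, chr3L:12696628-12696828, plus strand: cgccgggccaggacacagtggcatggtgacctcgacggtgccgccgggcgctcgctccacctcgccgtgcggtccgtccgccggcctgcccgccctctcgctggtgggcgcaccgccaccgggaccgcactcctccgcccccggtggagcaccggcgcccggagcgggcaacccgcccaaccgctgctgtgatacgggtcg
Hr4, chrX:1997728-1997928, plus strand: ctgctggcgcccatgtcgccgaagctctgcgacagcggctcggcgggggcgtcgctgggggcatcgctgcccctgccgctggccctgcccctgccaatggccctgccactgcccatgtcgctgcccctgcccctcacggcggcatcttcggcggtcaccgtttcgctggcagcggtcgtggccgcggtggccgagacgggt
Zyx, chr4:1058122-1058322, minus strand: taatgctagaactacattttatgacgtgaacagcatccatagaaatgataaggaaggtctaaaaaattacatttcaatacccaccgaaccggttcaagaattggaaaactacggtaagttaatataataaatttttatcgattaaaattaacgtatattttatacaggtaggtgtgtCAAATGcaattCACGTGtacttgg
Taf3, chr4:463299-463499, minus strand: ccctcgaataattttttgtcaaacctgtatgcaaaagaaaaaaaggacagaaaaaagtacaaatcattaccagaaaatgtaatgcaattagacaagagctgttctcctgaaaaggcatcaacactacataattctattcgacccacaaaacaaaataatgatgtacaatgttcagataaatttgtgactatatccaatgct

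The last 2 windows hold the longest uninterrupted CAG repeats among the members, of 30 bases in CG42390 and 27 bases in Smr, which encodes the ecdysone receptor corepressor Smrter. Capitals here mark runs of 2 or more CAG units on the coding strand. The reading frame of these single repeats was not determined, so they need not encode glutamine.
CG42390, chr3R:22126089-22126289, plus strand: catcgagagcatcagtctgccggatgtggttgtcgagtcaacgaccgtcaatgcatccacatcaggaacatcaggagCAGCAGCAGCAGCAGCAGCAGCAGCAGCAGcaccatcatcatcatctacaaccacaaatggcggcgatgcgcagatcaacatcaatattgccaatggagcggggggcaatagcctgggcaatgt
Smr, chrX:12713704-12713904, minus strand: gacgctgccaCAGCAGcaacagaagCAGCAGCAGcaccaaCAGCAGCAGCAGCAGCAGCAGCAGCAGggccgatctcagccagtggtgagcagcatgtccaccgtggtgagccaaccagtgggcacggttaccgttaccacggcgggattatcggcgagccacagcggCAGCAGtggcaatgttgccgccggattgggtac

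The members covered a narrow range of signal, which the rule bounds from above. Their median pooled signal was 23.5 (quartiles 20.9 and 27.5, lowest 18.8), the median deposited −log10 q-value was 0.109 and the highest 0.976, and every peak was 380 bp wide. Just inside the limit of 40 were the peaks in gbb (a BMP ligand) at 39.99, Larp4B at 39.98, Baldspot (a fatty acid elongase) at 39.98 and Men (malic enzyme) at 39.88. Just outside were those in CG7182 at 40.03, CG8490 and Mkp3 (a MAP kinase phosphatase) both at 40.06, and Ncoa6, a nuclear receptor coactivator, also at 40.06. The lowest members lay in Hsp83 (the fly Hsp90), CG18473 and Qsox1 (a sulfhydryl oxidase), all at 18.81. Coding-exon peaks with a signal of 40 or more and no IDR overlap numbered 119, and 8 IDR peaks had their summits in coding exons by the same definition. The strongest of those 8, in the homeobox gene otp, had a signal of 334.

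Summits in coding exons were almost missing from the top of each list and reached a plateau further down. Of the 2000 pooled peaks with the highest signal 0.400% were in coding exons (interval 0.173 to 0.787), of ranks 2001 to 5000 6.97%, and of ranks 5001 to 10000 19.1%. From there to the end of the list the share lay between 21.7% and 24.0%. In the list of replicate 1 alone the share was 1.75% in the first 2000, 17.2% at ranks 2001 to 5000 and 22.3% at ranks 5001 to 10000. In replicate 3 it was 0.400%, 4.27% and 14.7% in the same ranks. From rank 15001 on it lay between 22.5% and 23.1% in replicate 1 and between 20.7% and 21.5% in replicate 3, so replicate 1 reached its plateau earlier in the ranking. Over their whole lists 20.6% of replicate 1 summits and 16.6% of replicate 3 summits lay in coding exons, beside 13.9% of the sequence of the 6 chromosomes that met the same positional rule.

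**Figure D1:**
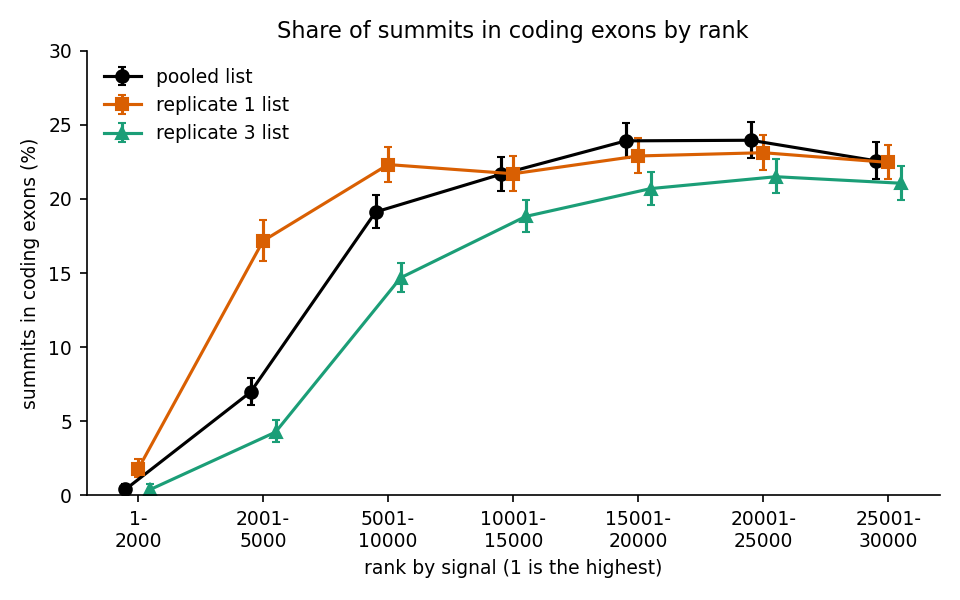
The y axis gives the percent of peak summits in coding exons more than 500 bp from any TSS, and the x axis the rank by signal in the pooled, replicate 1 and replicate 3 lists. Bars are 95% exact binomial intervals. The share is 0.400% in the first 2000 peaks of the pooled list and of replicate 3 and 1.75% in replicate 1, and it levels off beyond rank 15000.

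Of the members, 65.9% were overlapped by a peak of replicate 1 (interval 64.6 to 67.1), against 62.3% of all weak peaks. Replicate 3 overlapped 59.2% (57.9 to 60.5) of the members, against 65.1% of all weak peaks. Both replicates overlapped 1800 members, 32.6% (31.4 to 33.9), beside 34.4% of all weak peaks, so the share of members found in both lies near this background. A further 1833 members were found in replicate 1 only and 1466 in replicate 3 only. The last 415 members, 7.53%, were found in neither list, beside 7.02% of all weak peaks. An overlap of 1 bp sufficed. Since the pooled list was made from the same libraries, these shares describe how the lists share peaks and are no independent replication. Among other weak peaks the share in both was 41.5% at promoters, 33.3% in introns and 29.4% in intergenic DNA. Coding-exon peaks with a signal of 40 or more were in both lists in 93.3% of cases (87.2 to 97.1).

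Sharing by both replicates rose with the pooled signal in coding exons and elsewhere. Of members with a signal below 20, 10.3% were in both replicates, and 13.9% of those from 20 to 22, 23.9% from 22 to 25 and 44.6% from 25 to 30. The share was 70.8% from 30 to 35 and 87.7% from 35 to 40. Other weak peaks had 11.7%, 14.6%, 24.2%, 44.7%, 67.4% and 80.5% in the same bins. Up to a signal of 30 the intervals of members and other weak peaks overlapped in every bin, and from 35 to 40 the members were higher. Each replicate taken singly differed: from 25 to 30, replicate 1 overlapped 74.9% of members and 67.6% of other weak peaks, and replicate 3 overlapped 68.8% and 76.1%.

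**Figure D2:**
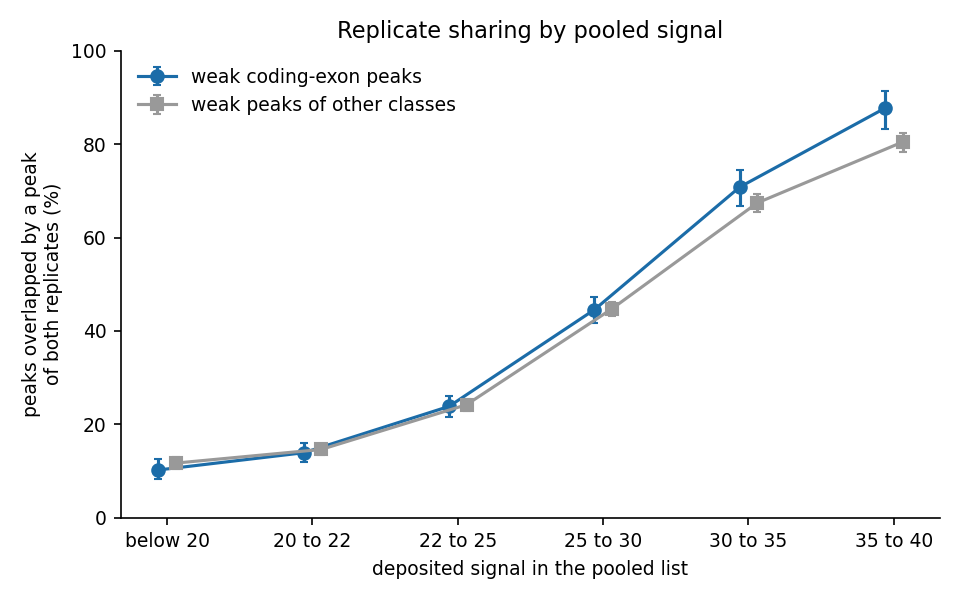
The y axis gives the percent of weak pooled peaks overlapped by a peak of both replicates, and the x axis the bin of deposited pooled signal. Circles are the 5514 weak coding-exon peaks, squares are weak peaks of all other positions, and bars are 95% exact binomial intervals. Both series rise from 10.3% and 11.7% below a signal of 20 to 87.7% and 80.5% from 35 to 40.

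Where both replicates overlapped a member, their summits were compared. The overlapping peak of highest signal in each replicate was taken, which need not be the nearest. The median distance between the replicate summits was 95 bp (quartiles 35 and 185), and 52.2% of the 1800 pairs lay within 100 bp. Across the 1800 peaks the signals of the replicates had a Spearman correlation of -0.03, given as a description, since a pooled signal held below 40 bounds both. Some replicate peaks overlapped more than 1 member, so that 339 members shared their replicate 1 peak with another member and 348 their replicate 3 peak. The member in CG4822 ranked 3259 and 2550 in the replicates, but those peaks had their summits 226 and 192 bp away and its pooled signal was only 25.5. The members in hry (ranks 5102 and 5746, summits 2 and 113 bp away) and Toll-7 (ranks 3897 and 5667, 85 and 81 bp away) were closer to theirs. The LIM homeobox gene tup, at ranks 1976 and 4373, CG31211 at 3260 and 2874, and the zinc finger gene Alh at 5688 and 5463 completed the well-ranked members together with raskol (3713 and 2010) and CG4455 (4053 and 3482). In replicate 3 the summits of raskol, CG4455 and CG31211 lay 224, 230 and 220 bp away, and that of tup in replicate 1 lay 152 bp away. In the other replicate these summits were 78, 0, 24 and 22 bp away.

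The replicate lists were also compared without the pooled list. Weak coding-exon peaks drawn from the replicate 1 list alone numbered 5750, and 29.3% of them (28.1 to 30.5) were overlapped by a replicate 3 peak, while a peak of their width placed at every position of the eligible coding sequence in turn would be overlapped in 17.3%. In the reverse direction 37.3% (36.0 to 38.7) of 4880 weak coding-exon peaks of replicate 3 were overlapped by replicate 1, against 20.7% of positions. For introns the corresponding values were 33.5% against 13.8% and 34.8% against 14.3%, and for intergenic DNA 24.4% against 8.16% and 35.6% against 11.3%. Promoters had 53.3% against 32.5% and 41.9% against 26.6%. Each of these classes thus shared peaks more often than its positions would. In both directions the ratio of the values was smaller in coding exons than in introns or intergenic DNA, and smaller still at promoters. The positions included those under IDR peaks and other strong peaks, which the weak peaks left out by rule. That rule can itself change these ratios, so their order is given as a description only. Within coding exons both values were higher at higher G+C content. From below 40% to 60 to 65% G+C, the overlapped share of replicate 1 peaks rose from 15.9% to 36.9% and that of positions from 9.34% to 24.5%. From 65% up they were 33.4% (28.0 to 39.2) and 25.9%.

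The members lay in the G+C-rich part of the coding sequence. The mean G+C content of their 201-bp windows was 55.5% ± 6.36 (SD, n = 5514), and that of all eligible positions, the 18.6 Mb of coding sequence more than 500 bp from a TSS, was 51.9% ± 7.15 (SD). Weak peaks outside coding exons had a mean of 44.5%, and the 6 chromosomes as a whole 42.2%. At each codon position the members exceeded the eligible sequence, with 58.2% against 55.7% at the first, 44.3% against 41.7% at the second and 67.3% against 63.1% at the third. Members found in both replicates had a mean of 56.1% and those in neither 54.2%. The richest members besides mirr and Hr4 lay in Rbfox1, a splicing regulator gene, at 74.6%, and the poorest member lay in the adaptor gene Crk on chromosome 4 at 30.8%.

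Density rose with G+C content without a break. It was 64.4 peaks per Mb (95% exact Poisson interval 50.8 to 80.4) where the window had less than 40% G+C, 130.4 from 40 to 45%, 191 from 45 to 50%, 276 from 50 to 55%, 383 from 55 to 60%, 576 from 60 to 65% and 852 (760.2 to 951) from 65% up. Each replicate list alone showed the rise, from 68.5 to 773 per Mb in replicate 1 and from 104 to 647 in replicate 3. The share of members found in both replicates went from 16.9% below 40% to 38.1% from 60 to 65% and was 34.8% from 65% up. The 119 coding-exon peaks with a signal of 40 or more rose too, from 2.74 per Mb at 45 to 50% to 14.5 at 60 to 65%. In introns and intergenic DNA the rise stopped earlier, and at promoters it went on through every bin. At 50 to 55% introns had 269 per Mb (254 to 284) and coding exons 276 (262 to 290.4), whereas at 60 to 65% introns had 315 (221 to 437) from only 36 peaks. Intergenic DNA rose from 67.4 below 40% to 222 at 55 to 60%, and promoters rose from 224 to 836.

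**Figure D3:**
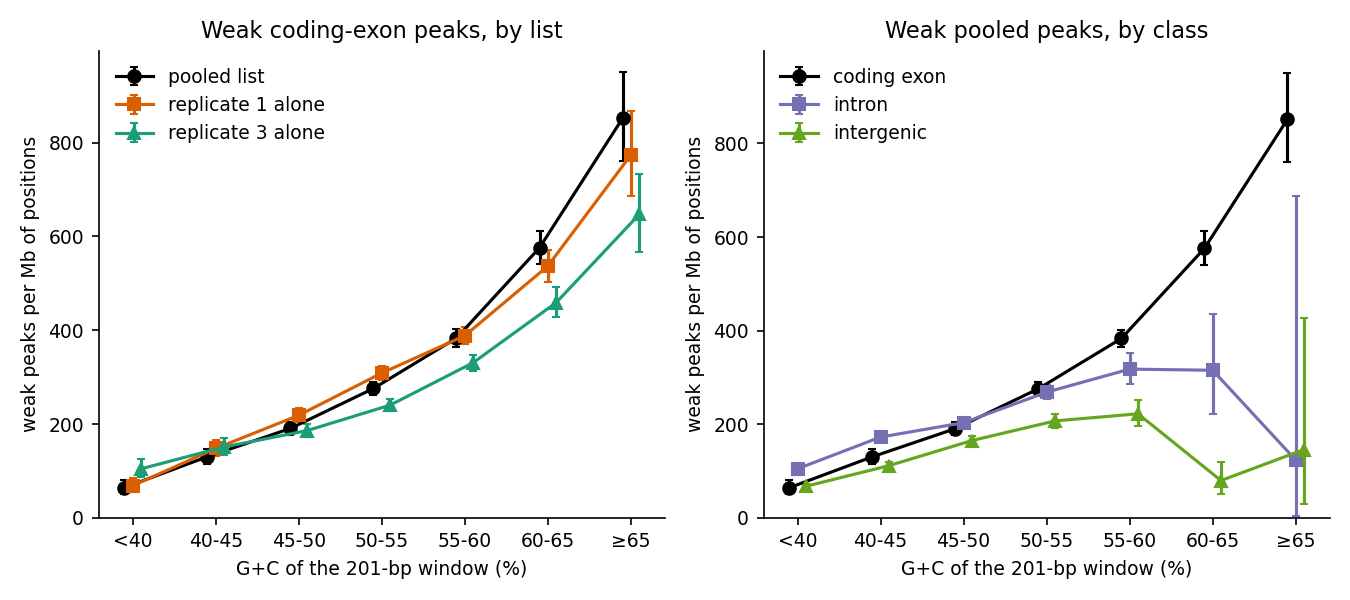
Both panels plot weak peaks per Mb of positions (y) against the G+C content of the 201-bp window (x), with 95% exact Poisson intervals. The left panel has weak coding-exon peaks in the pooled list and in each replicate list alone, which rise from 64.4, 68.5 and 104 to 852, 773 and 647 per Mb. The right panel has weak pooled peaks by class, where coding exons and introns stand at 276 and 269 per Mb at 50 to 55% and part above 55%.

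The same direction held inside single exons and genes. Each member window was compared with the other eligible positions of its own coding exon. It exceeded the exon's mean by 1.24 percentage points ± 3.63 (SD), and 66.6% of members (65.3 to 67.8) lay above it. Against the mean of its gene's eligible sequence the excess was 2.18 points ± 4.82 (SD), with 70.1% of members above (68.8 to 71.3). Members in neither replicate lay above their gene's mean in 62.7% of cases (57.8 to 67.3) and those in both in 71.8% (69.7 to 73.9). For exon lengths, gene lists and chromosomes, densities are given below beside the number expected from G+C content. That number was obtained by giving every eligible position the mean density of its bin of 2.5% G+C, a comparison chosen after the data were seen.

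Members lay in exons of middling length. The coding exon with the summit had a median length of 780.5 bp, and the median over eligible positions was 821 bp, while the median of the 62940 distinct coding exons was 211 bp. Density was 207 per Mb (189 to 227) in exons under 200 bp, 335 from 200 to 500 bp, 354 (337 to 371) from 500 to 1000 bp and 314 from 1000 to 2000 bp. It was 226 from 2000 to 4000 bp and 139.5 (117 to 165) in exons of 4000 bp or more. Exons under 200 bp had windows of 46.3% G+C on average and those of 500 to 1000 bp 53.4%. Against the number expected from G+C, the shortest exons held 1.08 times as many members and the longest 0.543 times. The deficit in long exons thus remained at matched G+C, and that in short exons did not. The median distance of a summit from the edge of its coding sequence was 196 bp, against 169 bp over eligible positions. Msp300, a giant nesprin that links nuclei to the cytoskeleton, has the exon of 27705 bp in which a single member lay, with a signal of 21.4 and a G+C content of 41.8%.

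Members were spread over 4076 host genes, 32.9% of the 12397 protein-coding genes with eligible sequence. Of these hosts 3018 had 1 member, 784 had 2, 208 had 3 and 66 had 4 or more, so 26.0% had more than 1. A single member lay in coding sequence of 2 genes. The share of genes that were hosts followed gene size. It was 9.02% for genes with under 500 bp of eligible sequence and 83.6% for those with 8000 bp or more. Density went the other way, from 0.365 members per kb to 0.164. The median eligible sequence was 1665.5 bp in hosts and 746 bp in other genes. Median distance from a member to the next pooled summit was 1344.5 bp and to the nearest IDR summit 14865.5 bp, and 2.77% of members lay within 1000 bp of an IDR summit.

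The 12 genes with the most members had 5 to 12 each. The zinc finger gene lola, known for many alternative coding exons, had 12 members, 6 of them in both replicates. Their signals ran from 19.96 to 36.6 with a median of 25.1, over 14600 bp of eligible sequence, which gives 0.822 members per kb. Its strongest member, at chr2R:10517931-10518310, ranked 2180 in replicate 1 and 24274 in replicate 3. Msp300 had 10 members over 63805 bp, or 0.157 per kb, which is below the 0.296 per kb of all genes. The gene gukh, whose protein binds the scaffold protein Discs large, had 9 members at 1.42 per kb, 9 overlapped by replicate 1 and 5 by replicate 3. Its signals ran from 19.4 to 37.1. The chromatin remodelling gene osa and the RNA-binding protein gene spen had 7 each, at 0.858 and 0.419 per kb. The Arf exchange factor gene siz, the muscle myosin gene Mhc, the corepressor gene Smr and the calcium release channel gene RyR had 6 each. Tmc (a mechanosensory channel-like gene), rols (a myoblast fusion gene) and the polarity kinase gene par-1 had 5 each. Of the 5 in par-1 none was overlapped by replicate 1, and 4 were overlapped by replicate 3.

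Some of the densest hosts held adjacent members that drew on the same replicate peak. Among hosts with 3 or more members, CG42542 had the most per kb, 2.65, with 3 members of signals 36.1, 24.9 and 22.2. The first pair shared its peaks in both replicates, at ranks 5284 and 16054. CG8563 followed with 2.53 per kb and 3 members that were all in both replicates, at signals from 21.1 to 26.4. Tudor-SN, a nuclease of the RNA silencing machinery, had 2.29 per kb, ATPsynbeta (a mitochondrial ATP synthase subunit) 2.04, Rop (a Sec1/Munc18 protein of synaptic vesicle release) 2.04 and the corepressor gene CtBP 2.02. In Rop a pair of members shared its peaks in both replicates, at ranks 17229 and 8702, and in ATPsynbeta and CtBP a pair shared its replicate 3 peak, at ranks 14075 and 8594. The members of ATPsynbeta, on chromosome 4, were all found in replicate 3 only.

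Strong peaks at the promoters of host genes were somewhat more common than at those of other genes. An IDR summit lay within 500 bp of a TSS of 14.8% of the 4076 hosts (13.7 to 15.9) and of 9.46% of the 8321 genes with no member (8.84 to 10.1). The share was 13.8% with 1 member, 14.9% with 2 and 25.2% (20.2 to 30.8) with 3 or more. At matched size the values were 15.9% against 8.07% for genes with under 500 bp of eligible sequence, 13.7% against 9.31% from 1000 to 2000 bp, and 15.1% against 13.7% from 2000 to 4000 bp. From 500 to 1000 bp and from 2000 bp up the intervals of hosts and other genes overlapped.

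Of 12 gene lists written from textbook knowledge, cytoplasmic ribosomal protein genes had the highest density of members, 1.12 per kb. These 17 members lay in 15 of the 54 genes with eligible sequence, and 6.10 were expected from G+C. The host share was 27.8% (interval 16.5 to 41.6), which spans the 32.9% of all genes. Median eligible sequence in the list was only 227 bp per gene, and of all genes with under 500 bp 9.02% were hosts. RpL35A, with signals of 22.8 and 19.2, and RpLP0, with 31.4 and 20.4, had 2 each, and in both genes the pair shared its replicate peaks. RpL7A had 1 member over 72 bp of eligible sequence. Next came glycolysis, with 0.667 per kb and 9 of 12 genes as hosts (75%, interval 42.8 to 94.5), Tpi, Gapdh2 and Ldh among them. Median eligible sequence in the glycolysis list was 970.5 bp, and of all genes with 500 to 1000 bp 26.3% were hosts. Actins and tubulins had 0.633 per kb, with 7 of 14 genes as hosts (50%, interval 23.0 to 77.0). Act5C, betaTub56D and alphaTub84D held 2 members each. The 2 in Act5C had signals of 35.1 and 32.6 and shared 1 peak in each replicate. Actin and tubulin genes have close paralogs in the genome, and how reads of such copies were placed is not given in the sources used here. Observed over expected from G+C was 2.79 for ribosomal proteins, 1.56 for glycolysis and 1.45 for actins and tubulins, from 17, 9 and 10 members.

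Among lists of developmental regulators, densities lay from 0.277 to 0.517 per kb, beside 0.296 per kb of all genes. The bHLH genes had the highest, but from only 11 members, and no interval was computed for it. The list of emc, da and other bHLH genes had 11 members in 7 of 28 genes (25%, interval 10.7 to 44.9, which spans the 32.9% of all genes), 0.517 per kb and 1.39 times the number expected from G+C. Of these 3 lay in the same coding exon of da, 2325 bp long, at signals of 39.6, 22.5 and 22.2, and 2 of the 3 were in both replicates. The strongest ranked 3156 in replicate 1 and 15951 in replicate 3. The members at 22.5 and 22.2 shared 1 replicate 3 peak, at rank 14005. Sidpn and crp had 2 each, and emc itself was no host. Segmentation and Hox genes had 0.393 per kb and 0.822 times the expected number, in 11 of 32 genes (34.4%). Abd-B and the zinc finger gene opa had 3 members each and abd-A 2, of which opa and abd-A reached signals of 38.8. Notch pathway genes had 0.277 per kb and 0.771 times the expected number, with 2 members each in H and Ser and 1 in O-fut1. Of these genes 10 of 18 were hosts (55.6%, interval 30.8 to 78.5). Polycomb and Trithorax genes had 0.366 per kb (15 of 24 genes, 62.5%, 1.16 times), led by osa with 7, trx with 4 and ash1 with 3. Their median eligible sequence was 2975.5 bp, and of all genes with 2000 to 4000 bp 56.0% were hosts.

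Genes of large structural proteins had low densities of members, as large genes did in general. All 15 giant muscle and cytoskeletal genes with eligible sequence were hosts, with 48 members at 0.168 per kb, which is 0.692 times the number expected from G+C. Their median eligible sequence was 12448 bp. Of all genes with 8000 bp or more 83.6% were hosts, at 0.164 members per kb, so this list lay near its size class. Msp300 and Mhc led them, followed by Zasp52 with 4. Of the basement membrane and matrix genes 12 of 13 were hosts (92.3%) at 0.200 per kb and 0.642 times. Their median eligible sequence was 5727 bp, and of all genes with 4000 to 8000 bp 72.7% were hosts, at 0.260 per kb. The giant matrix gene dpy had 5 members over 68847 bp, none of them in both replicates, and the laminin gene wb 4, likewise none in both. The collagen IV gene vkg had 4 over 5727 bp, 3 of them in both replicates. Chemoreceptor genes were hosts in 25 of 179 cases (14.0%, against 32.9% of all genes), at 0.160 per kb and 0.842 times. Their median eligible sequence was 769 bp, and of all genes with 500 to 1000 bp 26.3% were hosts, at 0.383 per kb. Gr43a and Ir8a led the chemoreceptor genes with 2 members each, followed by Gr59a with 1. Heat shock genes had 0.343 per kb (9 of 24 genes, 37.5%, 0.899 times), with 2 members each in Hsc70-5 and Hsp83 and 1 in Hsp67Ba. Cuticle protein genes had 0.331 per kb (10 of 58, 17.2%, 0.855 times), Cpr49Aa, Cpr62Bc and Cpr62Ba among them with 1 each. Median eligible sequence in the cuticle list was 373.5 bp, and of all genes with under 500 bp 9.02% were hosts, at 0.365 per kb.

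Density differed between chromosomes. It was 295 per Mb on 2L, 315 on 2R, 323 on 3L and 322 on 3R, together 314 (306 to 324), and 221 (206 to 238) on X from 736 members. The ratio of X to these autosome arms was 0.704. In replicate 1 alone it was 0.654 and in replicate 3 alone 0.790. The eligible sequence of X is richer in G+C, at 54.1% against 51.6%, and at matched G+C the ratio was lower, 0.586. Within the bin of 55 to 60% G+C, X had 238 members per Mb (209 to 271) and the autosome arms 425 (404 to 448). Weak peaks of the other classes were also sparser on X, with ratios of 0.887 at promoters, 0.781 in introns, 0.710 in 3' UTRs and 0.615 in intergenic DNA. Of the 119 coding-exon peaks with a signal of 40 or more only 6 were on X, 1.80 per Mb against 7.52 on the autosome arms. Members on X were in both replicates in 26.2% of cases and those on the autosome arms in 33.8%. The embryos were of both sexes, and the part of the X copy number in these ratios was not tested.

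Chromosome 4, the small chromosome largely packed as heterochromatin, differed between the replicates. Its 54 members gave 212 per Mb (159 to 276). With 39.9% G+C in its eligible sequence, only 27.9 were expected, a ratio of 1.94. Replicate 1 overlapped 35.2% of these members and replicate 3 81.5%. From the replicate lists alone the densities were 133 and 243 per Mb, so on this chromosome the list of replicate 3 had more, whereas on each autosome arm replicate 1 had more. In all eligible sequence below 40% G+C, that of chromosome 4 included, replicate 3 also had more, with 104 per Mb against 68.5 in replicate 1. At 40 to 45% the densities were 151 and 148. The part of base composition in the contrast on chromosome 4 was not tested.

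**Figure D4:**
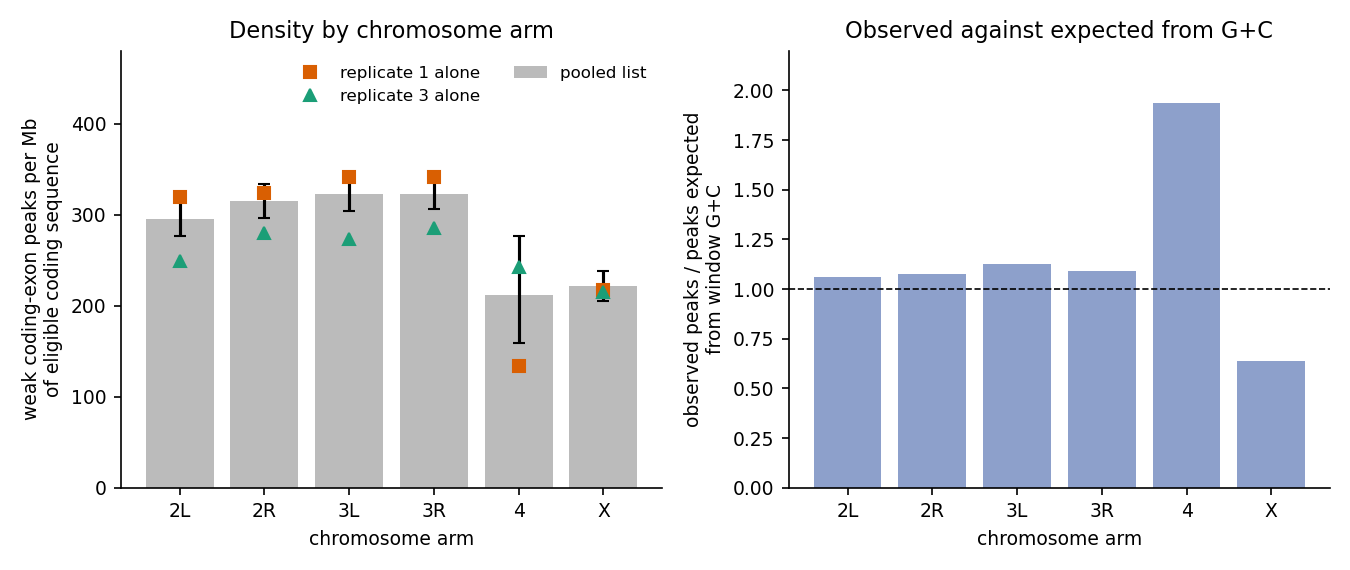
The left panel plots weak coding-exon peaks per Mb of eligible coding sequence by chromosome arm, with bars for the pooled list (95% exact Poisson intervals) and points for each replicate list alone. The right panel plots the observed number over that expected from window G+C, with a dashed line at 1. X stands at 221 per Mb and a ratio of 0.639, and chromosome 4 at 212 per Mb and a ratio of 1.94.

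E-boxes were about as common in the members as in the sequence they lay in. A window with 1 or more matches to CANNTG, which reads the same on both strands, was found for 68.6% of members (67.3 to 69.8), 67.5% of eligible positions and 67.4% of weak peaks elsewhere. Members in both replicates had 69.1% (66.9 to 71.2) and those in neither 65.5% (60.8 to 70.1), so these intervals overlapped. Hexamers of G+C-rich centre were more frequent. CAGCTG was in 16.0% of members (15.1 to 17.0), 14.4% of eligible positions and 10.3% of weak peaks elsewhere, and CACCTG, on either strand, in 18.2% (17.2 to 19.2), 15.6% and 8.01%. CACGTG was in 3.48%, 2.98% and 2.97%. Each of the 3 hexamers is also counted as an E-box, and these were not compared singly at matched G+C. The bin from 55 to 60% G+C had an E-box in 69.5% of members and 70.0% of eligible positions.

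Repeats of CAG were more frequent in the members than in the eligible sequence. CAGCAGCAG on either strand was in 442 members, 8.02% (7.31 to 8.76), in 5.09% of eligible positions and in 2.09% of weak peaks elsewhere. The gap varied with base composition and was not present in every bin. At 45 to 50% G+C the values were 1.58% of members (0.793 to 2.81) and 2.32% of positions. They were 5.96% (4.80 to 7.31) and 4.203% at 50 to 55%, and 7.31% and 7.42% at 55 to 60%. At 60 to 65% they were 14.8% (12.7 to 17.1) and 12.3%, and from 65% up 19.9% (15.7 to 24.8) and 16.7%. Only at 50 to 55% and 60 to 65% did the interval of members exclude the value of positions. The reading frame of the repeat was the same as elsewhere. Of 900 starts of CAGCAGCAG in eligible sequence of member windows 71.7% were on the coding strand in the CAG frame, which encodes glutamine, against 71.8% of 11152 starts in all eligible sequence. After CG42390 and Smr the longest repeats lay in Atx2, an RNA-binding ataxin gene, and the unconventional myosin gene Myo10A, both of 27 bases. GAGAGAG, on either strand, was in 0.907% of members, 1.06% of positions and 3.66% of weak peaks elsewhere. TATCGATA was in 0.181%, 0.177% and 1.33%.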

How the data were processed

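Per the listing files, the deposited narrowPeak tables on dm6 hold the IDR input (peaks and background) of each replicate and of both replicates pooled, and the IDR-thresholded set. The deposited signal of each peak, scaled by the authors' caller, and the deposited −log10 q-value were used as they stand. Aligner, caller and IDR cutoff, not given in the sources used here, could change every value, and dm3 lists were left aside. The members and the gene lists were chosen with earlier results of these data known.

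Both large autosomes, chromosome 4 and X were kept, which left out 1 pooled peak on Y. Genes were those of Ensembl release 115 (annotation 6.54), and 5 list symbols were renamed to match. A position was eligible if it lay in coding sequence more than 500 bp from every TSS. All eligible positions were counted in full as the background, with exact Clopper-Pearson and Poisson intervals, and no test was made, since all samples form 1 group and peaks are not replicates. Replicate lists alone were taken at the same fraction, the lowest 85.2% by signal with no IDR overlap. Named genes were the 12 hosts with the most members, the 6 densest with 3 or more, the 8 members best ranked in both replicates, members nearest the threshold, the lowest in signal, the extremes of G+C and up to 3 hosts per list; mld came from the rule for printed sequences, and otp and the genes with the longest CAG repeats were chosen after their values were seen. Planted summits were recovered (1000 of 1000 eligible ones as coding, 0 of 1000 others), and a planted density ratio of 2 came out at 1.91. Alternatives changed the signal limit, TSS distance, coding definition, overlap rule, window and replicate. The scripts ran on Python 3.11.15 with scipy 1.17.1, pandas 2.3.3, numpy 2.4.6 and, for plots, matplotlib 3.10.9.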

Additional observations from a re-analysis of the deposited data

How the results depend on the processing

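No paired analysis was possible because all samples form 1 group. The number of members (5514) and of hosts (4076) stayed within 1.5 times under each alternative and fell furthest at 1000 bp from any TSS, to 3853 and 2802. Of the other values, each alternative planned moved the X to autosome ratio by less than the SD between the replicate lists, a rough yardstick with 2 replicates, and the values below moved by more than that SD or, for overlaps, left the binomial interval, or are the range with a replicate left out. With each replicate left out in turn the mean G+C content was 54.7% to 55.002%, the members' share of weak peaks 19.3% to 22.7%, the density on X 216 to 217 per Mb, hosts with more than 1 member 23.5% to 25.9%, windows with CAGCAGCAG 7.03% to 7.74% and with an E-box 68.1% to 68.5%. With a signal limit of 30, the share in replicate 1 was 61.6%, in replicate 3 54.2% and in both 24.7%, density was 200.0 per Mb on X and 263 on the autosome arms, and 22.9% of hosts had more than 1 member. With no limit the share in both was 33.9% and density on X 223. At 1000 bp from any TSS the members were 15.5% of weak peaks, with a median exon of 819 bp, 199.7 per Mb on X, 57.6% in replicate 3, 31.4% in both, 9.21% with CAGCAGCAG and 68.1% with an E-box. With coding sequence required in every transcript members were 18.6% of weak peaks, at 225 per Mb on X, 7.28% with CAGCAGCAG and 69.2% with an E-box. When replicate summits had to lie within 100 bp, sharing fell to 54.4% in replicate 1, 47.5% in replicate 3 and 18.2% in both, and with overlap of at least 50% of both peaks to 61.3%, 53.8% and 25.2%. Windows of 501 and 101 bp gave 53.4% and 56.3% G+C, beside 50.5% and 52.7% of eligible positions, 94.2% and 44.6% with an E-box, and 13.7% and 4.50% with CAGCAGCAG. Standardising for window G+C, chosen after seeing the data, took the X to autosome ratio from 0.704 to 0.586. The cause of these changes was not tested.

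Read depth, the control and the caller's scaling are not in the values used here, so precision rests on peak counts alone. With 2 replicates from lists cut at 30000 peaks, absence of a member from a list says only that it ranked below that list's end.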
